A study of Mus musculus with 7 samples.

Results

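The genes described here are 9 genes of cytokine signalling in early blood cells, chosen by symbol: the receptors Flt3, Il6st, Ifngr1 and Csf2rb, the kinase Jak2, the transcription factors Stat5a and Stat5b, and the inhibitors Socs2 and Sh2b3. All 9 were found among the 54347 genes of the deposited table, and all 9 were among the 15372 genes that passed the filter on low counts. The thrombopoietin receptor gene is not one of the 9 and was not analysed here. The libraries are RNA sequencing of long-term haematopoietic stem cells (LT-HSCs), sorted from bone marrow of female mice, with 3000 to 5000 cells of 1 mouse in each. KO libraries came from 3 Emcn-/- mice and WT libraries from 4 Emcn+/+ littermates, none of them treated with an agent according to the labels. Every mouse, WT included, carries the same strain label, C57BL/6N-EMCN em1(IMPC)Wtsi /WtsiH. The product of Emcn, endomucin, is a surface sialomucin, and the label gives no promoter or Cre that would limit its loss to blood cells. Ages are not given. Libraries are named by genotype and mouse number, as in ko_306.

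Cytokines of this class bind receptors that have no kinase of their own and hold a Janus kinase (JAK) on their inner tail. The bound receptor activates the kinase, which phosphorylates STAT proteins, and these move to the nucleus and switch on target genes, among them genes of the SOCS family that dampen the signal. In haematopoietic stem cells thrombopoietin acts through JAK2 and STAT5 and is needed for their maintenance, and the adaptor LNK, encoded by Sh2b3, restrains it. Flt3 is a receptor tyrosine kinase with its own kinase domain, and its surface protein is used to tell multipotent progenitors from LT-HSCs.

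Library totals ran from 6648881 to 11101774 counts in KO and from 6444134 to 10322741 counts in WT. Emcn had 1, 0 and 0 counts in KO libraries, against 130, 327, 223 and 216 counts in WT libraries, with an adjusted p of 1.1e-04 in edgeR. All 13 LT-HSC markers, among them Kit, Procr, Mecom and Hlf, had counts in every library. Their summed level was 2078 to 2442 CPM (counts relative to library size, with TMM factors) in KO and 1502 to 2440 CPM in WT, lowest in wt_284. Kit, Ly6a and Slamf1 encode antigens stained in the sort, in which cells bearing lineage antigens were depleted. Library wt_284 stood apart. The summed level of 16 myeloid markers, such as Mpo, Ngp and S100a9, was 199 to 685 CPM in KO and 14791 CPM in wt_284. In wt_290, wt_310 and wt_312 it was 1287, 1293 and 254 CPM. All 16 were detected in at least 1 KO library, and 11 of the 16 in every library. The summed level of 9 erythroid markers was 540 to 693 CPM in KO and 2104 CPM in wt_284. In the same 3 WT libraries it was 894, 926 and 479 CPM, in that order. For 7 B cell markers the sums were 10.8 to 15.2 CPM in KO, 11.8 to 13.9 CPM in those 3 and 79.8 CPM in wt_284. Sums were 4.31 to 6.56 CPM in KO, 3.08 to 8.10 CPM in those 3 and 17.1 CPM in wt_284 for 5 T cell markers. Of these, Cd3e and Cd3g were at 0 in all KO libraries and in wt_312, and Cd3g also in wt_310. For 6 megakaryocyte markers the sums were 93.5 to 128 CPM in KO and 58.4 to 158 CPM in WT. For 6 endothelial markers, which include Emcn, the sums were 6.88 to 8.78 CPM in KO and 25.0 to 57.3 CPM in WT. Emcn itself made up 15.8 to 34.1 CPM of the WT sums and at most 0.0861 CPM of the KO sums. Cdh5 was at 0 in all KO libraries and also in wt_310 and wt_312. For 5 mast cell and basophil markers the sums were 0 to 8.09 CPM in KO, 8.86 to 33.0 CPM in wt_290, wt_310 and wt_312 and 89.6 CPM in wt_284. In ko_314 all 5 were at 0. Apart from fits with the myeloid level as a covariate, the part of other cells in the values below was not tested. Results are therefore also given without wt_284. Even then, the myeloid and erythroid sums of wt_290 and wt_310 were above those of every KO library. Leaving out wt_284 thus does not make the genotypes even in these markers. In bulk libraries fewer cells of a type and less RNA per cell cannot be told apart.

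No gene of the 9 passed the test between genotypes. In edgeR 0 of 9 passed at an adjusted p of 0.05 over all genes tested, where 0.00651% of all genes, Emcn alone, were called. DESeq2 called 0.0655% of all genes and edgeR with no filter on low counts 0.272%, again with 0 of the 9. None of the 9 had an unadjusted p under 0.05 in edgeR either, against 3.27% of all genes, 1.28% higher and 1.99% lower in KO. Of the 9, 2 had a log2 fold change (KO minus WT) above 0 and 7 below it, where 47.6% of all genes were above 0. Their median was -0.10, against -0.02 over all tested genes. For 8 of the 9 genes, all but Csf2rb, the 95% interval did not reach 2-fold up or down. The same was true of 49.6% of all genes and of 76.5% of those above 10 CPM. The genotypes did not overlap for 1 gene, Jak2, which was lower in KO. Of all genes, 4.86% did not overlap, with 2.43% lower in KO, and without wt_284 the share lower in KO was 3.62%.

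**Figure D1:**
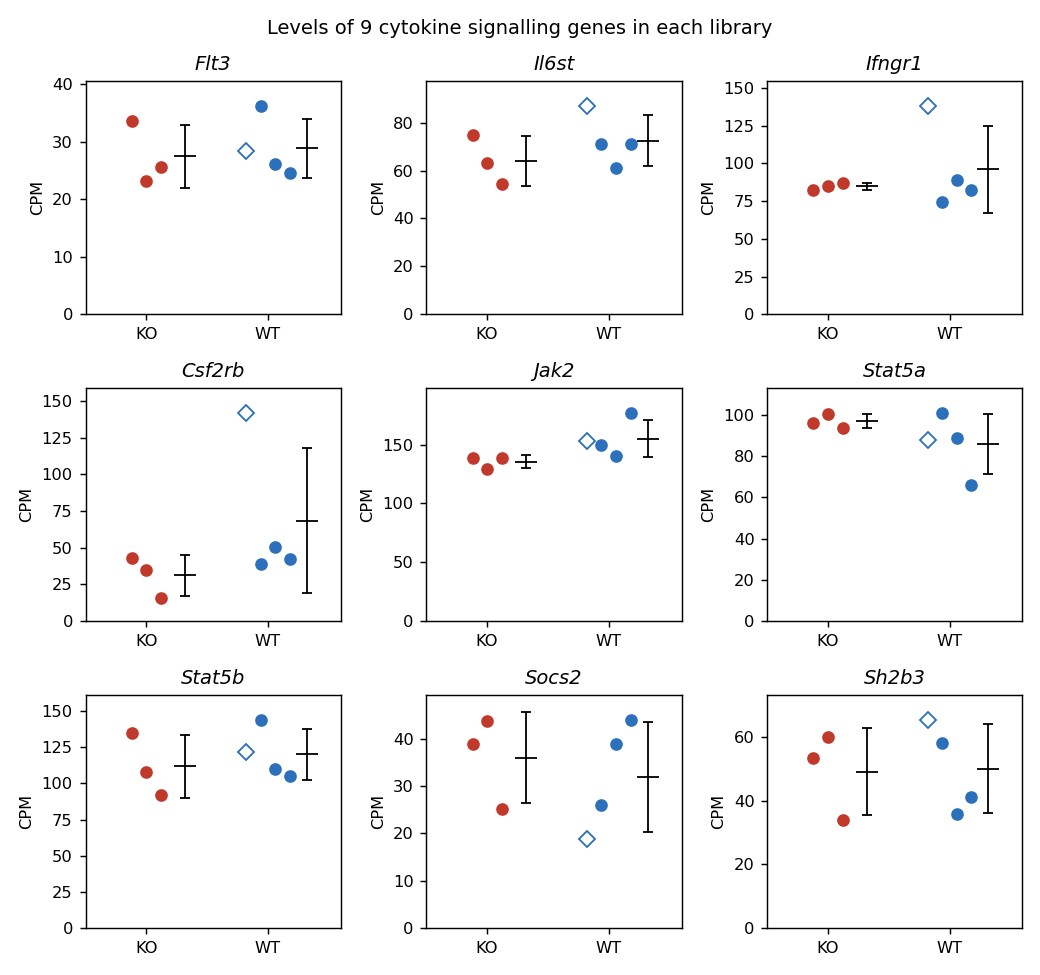
Level of each of the 9 genes in CPM (y axis, from 0), 1 point per library, KO left and WT right, with the mean and SD beside the points. The open diamond is wt_284, which is the highest library for Csf2rb, Ifngr1, Il6st and Sh2b3 and the lowest for Socs2.

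**Figure D2:**
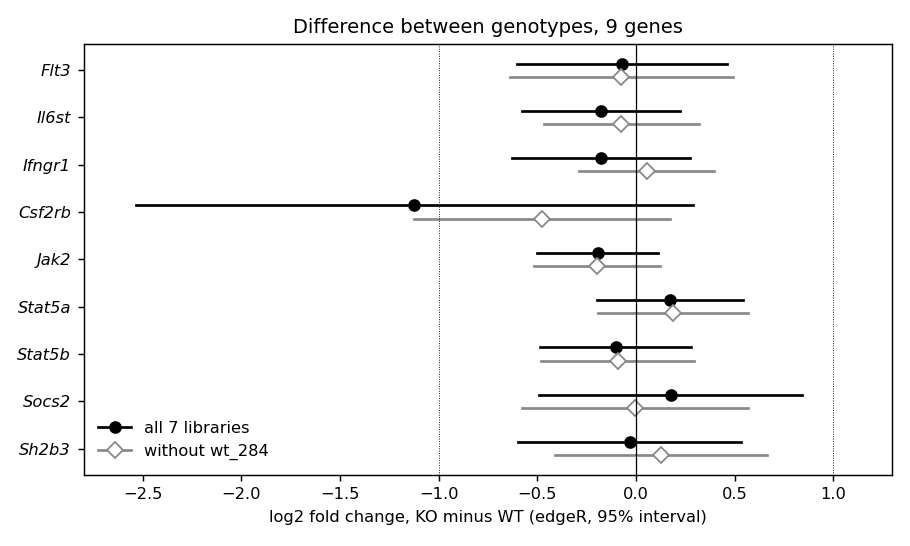
Fitted log2 fold change of each gene, KO minus WT, with its 95% interval from edgeR (x axis), for all 7 libraries in black and without wt_284 in grey. Dotted lines mark 2-fold, and every interval includes 0, from -2.54 to 0.29 for Csf2rb to -0.50 to 0.11 for Jak2.

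Among the receptors, the largest difference was that of Csf2rb, which encodes the beta chain shared by the receptors for interleukin-3, interleukin-5 and GM-CSF (ENSMUSG00000071713.6, chromosome 15, 78325752 to 78353847, plus strand, GRCm38). It had 43.1, 34.7 and 15.9 CPM in ko_306, ko_314 and ko_320, against 142, 38.6, 50.4 and 42.1 CPM in wt_284, wt_290, wt_310 and wt_312. Only wt_284 was far above the rest, ko_320 was the lowest library, and ko_306 lay within the range of the other WT libraries. The log2 fold change was -1.12 ± 0.59 (SE) with an adjusted p of 0.992 in edgeR, and KO was lower in 10 of the 12 pairs of a KO and a WT library. Without wt_284 it was -0.48 ± 0.30 (SE), with an adjusted p of 0.999 in edgeR. With all 7 libraries DESeq2 gave an unadjusted p of 0.00882 and an adjusted p of 0.765, and edgeR without robust estimation an unadjusted p of 0.0441.

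Mice carry a close copy of this gene, Csf2rb2, which encodes a beta chain of the interleukin-3 receptor, on the opposite strand 20030 bases away. It had 21.6, 28.6 and 15.7 CPM in the KO libraries, against 37.1, 17.9, 32.7 and 17.5 CPM in the WT libraries, in the order above. How reads that fit both copies were shared out is set by the authors' quantification, so either level is uncertain. Csf2rb made up 66.6%, 54.8% and 50.4% of the counts of both genes in the KO libraries, against 79.3%, 68.3%, 60.7% and 70.7% in the WT libraries. The mean share was 57.3% ± 8.36 (SD, n = 3) in KO and 69.7% ± 7.66 (SD, n = 4) in WT. It was highest in wt_284 and lowest in ko_320, and the genotypes overlapped. The exact permutation p, two-sided, was 0.114, or 0.171 adjusted over the 2 shares tested, and groups of this size cannot give a p below 0.0286.

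Ifngr1, the ligand-binding chain of the interferon gamma receptor (ENSMUSG00000020009.13, chromosome 10, 19591949 to 19610229, plus strand), had the most even level of the 9 genes in KO. It had 82.5, 84.9 and 87.4 CPM in the KO libraries, against 138, 74.4, 89.3 and 82.4 CPM in the WT libraries. The KO values lay inside the WT range, and wt_284 was far above the other WT libraries. The log2 fold change of -0.18 ± 0.21 (SE), adjusted p 0.992 in edgeR, turned to 0.05 ± 0.16 (SE) without wt_284.

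Il6st encodes gp130, the signalling chain shared by the receptors for interleukin-6, interleukin-11 and LIF (ENSMUSG00000021756.12, chromosome 13, 112464070 to 112510086, plus strand). It had 74.9, 62.9 and 54.3 CPM in the KO libraries, against 86.9, 70.9, 61.0 and 71.1 CPM in the WT libraries. The ranges overlapped, with wt_284 highest and ko_320 lowest. KO minus WT was -0.18 ± 0.19 (SE) in log2, adjusted p 0.992 in edgeR, and -0.08 without wt_284. Leaving out 1 mouse gave -0.33 to -0.05.

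Flt3, the receptor of FLT3 ligand (ENSMUSG00000042817.15, chromosome 5, 147330741 to 147400489, minus strand), was detected in every library, with 155 to 389 counts in KO and 171 to 383 counts in WT. Its level was 33.5, 23.1 and 25.6 CPM in the KO libraries, against 28.4, 36.2, 26.1 and 24.5 CPM in the WT libraries. Values of both genotypes were interleaved, and wt_284 did not stand apart. The mean was 27.4 ± 5.42 CPM (SD, n = 3) in KO and 28.8 ± 5.16 CPM (SD, n = 4) in WT. The 95% interval of the log2 fold change ran from -0.60 to 0.46, a range of 0.659 to 1.38 times the WT level.

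Jak2, the kinase that the receptors for thrombopoietin and for the beta chain cytokines share (ENSMUSG00000024789.13, chromosome 19, 29251828 to 29313080, plus strand), was the one gene whose genotypes did not overlap. It had 139, 129 and 138 CPM in the KO libraries, against 153, 149, 141 and 177 CPM in the WT libraries. Every KO library was thus below every WT library, while ko_306 and wt_310 were only 1.88 CPM apart. The difference was small, with means of 136 ± 5.28 CPM (SD, n = 3) in KO and 155 ± 15.5 CPM (SD, n = 4) in WT. The log2 fold change was -0.19 ± 0.14 (SE), which had an adjusted p of 0.992 in edgeR, and its 95% interval spanned 0.707 to 1.08 times the WT level. The separation held under RLE scaling but not with upper-quartile scaling, nor when counts were divided by library totals, where ko_306 had 145 CPM, against 138 CPM in wt_284 and 143 CPM in wt_310. Leaving out 1 mouse gave log2 fold changes from -0.24 to -0.11, with -0.20 without wt_284 and the smallest, -0.11, without wt_312, the highest library.

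Jak2 was also the steadiest of the 9 genes. The SD of its log2 level over the 7 libraries was 0.15, and only 7.55% of the 9896 genes above 10 CPM, whose median was 0.31, had a smaller one. The SD of Csf2rb was 0.92, and 96.6% of those genes had a smaller one. Socs2 at 0.47 and Sh2b3 at 0.38 were also above the median, and the other 5 genes lay between 0.21 and 0.29.

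The STAT5 proteins are encoded by a pair of neighbouring genes on chromosome 11 of GRCm38, Stat5a from 100859351 to 100885169 on the plus strand (ENSMUSG00000004043.14) and Stat5b from 100780731 to 100850724 on the minus strand (ENSMUSG00000020919.11), 8626 bases apart. Stat5a had 96.2, 101 and 93.9 CPM in the KO libraries, against 87.8, 101, 88.8 and 65.9 CPM in the WT libraries. The KO libraries lay close together at the upper end of the WT range, and wt_312 was the lowest. Its log2 fold change was 0.17 ± 0.17 (SE), with an adjusted p of 0.992 in edgeR, and 0.08 to 0.25 leaving out 1 mouse.

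Stat5b had 135, 108 and 92.3 CPM in the KO libraries, against 122, 144, 110 and 105 CPM in the WT libraries. Here ko_320 was the lowest library, and the ranges overlapped. On the log2 scale the difference was -0.10 ± 0.18 (SE), adjusted p 0.992 in edgeR. Stat5a overlaps Stat3 on the opposite strand, and the sources used here do not say whether strand entered the counting, so reads there could fall to either gene.

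The share of Stat5a within the counts of the STAT5 pair does not depend on scaling between libraries. It was 41.6%, 48.2% and 50.4% in ko_306, ko_314 and ko_320, against 41.9%, 41.2%, 44.7% and 38.6% in wt_284, wt_290, wt_310 and wt_312. Both ko_314 and ko_320 were above every WT library, whereas ko_306 lay within the WT range. The exact 95% binomial interval, which covers counting error only, was 45.6% to 50.9% in ko_314, 47.8% to 53.0% in ko_320 and 39.7% to 43.5% in ko_306. Libraries of the same genotype thus differed by more than counting error. Reads that fit both genes were shared out by the authors' quantification, and the interval does not cover error in that step. The mean was 46.7% ± 4.60 (SD, n = 3) in KO and 41.6% ± 2.50 (SD, n = 4) in WT, with an exact permutation p of 0.171, also after adjustment. The share was higher in KO in 10 of 12 pairs. The difference of 5.14 percentage points was 3.30 without ko_320, with an exact permutation p of 0.40. Without ko_306 it was 7.72, with an exact permutation p of 0.0667, the smallest that 2 against 4 libraries can give.

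**Figure D3:**
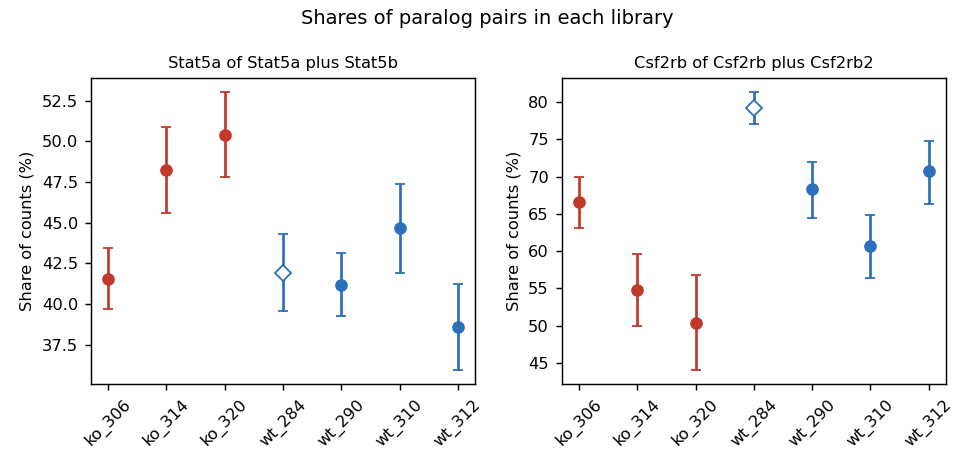
Share of counts within 2 paralog pairs in percent (y axis) in each library (x axis), KO red and WT blue, wt_284 as an open diamond, with exact 95% binomial intervals. Left, Stat5a of Stat5a plus Stat5b is above every WT library in ko_314 and ko_320 but not in ko_306. Right, Csf2rb of Csf2rb plus Csf2rb2 is highest in wt_284.

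Among the inhibitors, Socs2 encodes a suppressor of cytokine signalling and is itself switched on by STAT5 (ENSMUSG00000020027.18, chromosome 10, 95385362 to 95417180, minus strand). It had 38.9, 43.8 and 25.2 CPM in the KO libraries, against 18.8, 26.0, 38.8 and 44.0 CPM in the WT libraries. Both genotypes held high and low libraries: ko_306, ko_314, wt_310 and wt_312 had 38.8 CPM or more, and ko_320, wt_290 and wt_284 were at 26.0 CPM or less. The log2 fold change of 0.18 ± 0.31 (SE), adjusted p 0.992 in edgeR, was -0.01 without wt_284, its lowest library.

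Sh2b3 encodes LNK, an adaptor that binds JAK2 and restrains signals of the thrombopoietin receptor and of KIT (ENSMUSG00000042594.16, chromosome 5, 121815488 to 121837646, minus strand). It had 53.5, 60.1 and 33.9 CPM in the KO libraries, against 65.6, 58.2, 35.8 and 41.2 CPM in the WT libraries. The ranges overlapped, and each genotype held both high libraries and low ones. Fitted in edgeR, KO minus WT was -0.03 ± 0.26 (SE) in log2, adjusted p 0.995, and it was 0.02 with upper-quartile scaling and 0.13 without wt_284. Atxn2 overlaps the locus on the opposite strand.

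Levels of different genes were compared per kb of exon, as CPM divided by the length of all exons of the gene in GENCODE M21. Ifngr1 was highest at 32.1 ± 7.44 CPM per kb (SD, n = 7), above 92.4% of the 14924 tested genes with a length. Jak2 followed at 29.2 ± 3.07 and Stat5b at 21.1 ± 3.27, and then came Stat5a at 12.7 ± 1.69 and Sh2b3 at 10.3 ± 2.64. Csf2rb at 7.20 ± 5.62, Il6st at 6.20 ± 0.961 and Flt3 at 4.57 ± 0.787 were lower, and Socs2 was lowest at 3.53 ± 1.06 CPM per kb, above 37.3% of tested genes. Genotype means of Csf2rb were the farthest apart, with 4.29 in KO and 9.38 in WT. Those of Ifngr1 were 29.8 in KO and 33.7 in WT, and those of Socs2 3.78 in KO and 3.35 in WT.

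Some steps of this order held in every library and others did not. In 7 of 7 libraries Jak2 was above Stat5b, Stat5b above Stat5a, and Il6st above Flt3. Stat5a was above Sh2b3 and Sh2b3 above Csf2rb in 6 of 7. Ifngr1 was above Jak2 in 5 of 7 libraries, Flt3 above Socs2 in 5 of 7, and Csf2rb above Il6st in 2 of 7, so these neighbours did not differ beyond their spread. Without wt_284 Csf2rb averaged 5.15 and Il6st 5.93 CPM per kb, the other way round. The step from Stat5b to Stat5a and that from Flt3 to Socs2 turned round when the longest transcript was used as the length, with 22.9 for Stat5a and 22.4 for Stat5b, and 7.93 for Socs2 and 7.14 for Flt3, in CPM per kb.

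**Figure D4:**
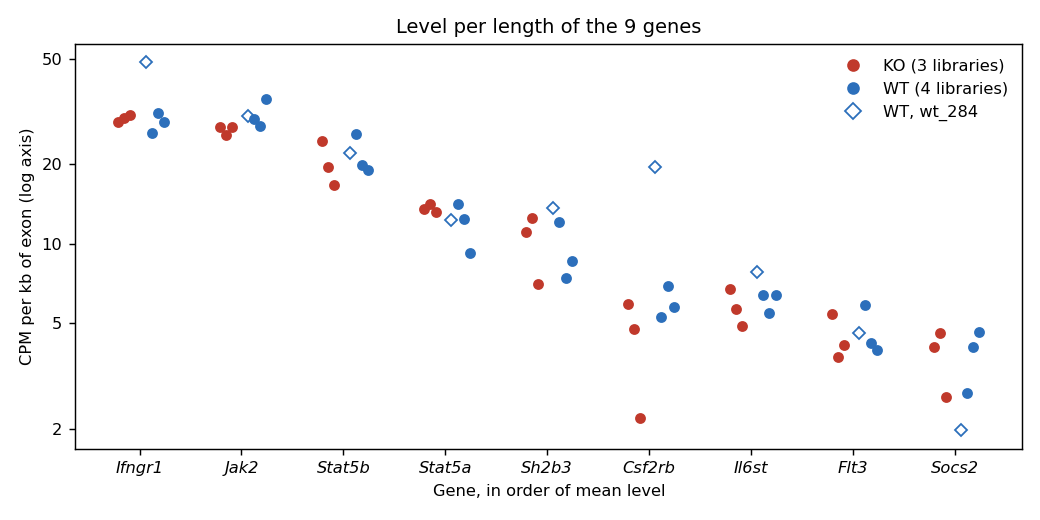
Level per length of the 9 genes in CPM per kb of exon (y axis, log axis), 1 point per library, KO red to the left of WT blue in each gene, wt_284 as an open diamond. Genes run from Ifngr1 at a mean of 32.1 to Socs2 at 3.53, and the points of Csf2rb range over 8.91-fold.

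Patterns over the 7 libraries were compared by the root mean square difference of log2 CPM, centred for each gene, in which 0 would be the same pattern. Of the 36 pairs among the 9 genes, Flt3 and Stat5b were nearest, at 0.11, and Csf2rb and Socs2 farthest, at 1.08. Csf2rb was highest and Socs2 lowest in wt_284. Over 9208 other genes above 10 CPM, the nearest to Jak2 were Fam76b and Hip1r, both at 0.05, and those to Flt3 were Rcc2 at 0.05 and Bicral at 0.07. Those to Stat5a were Rbm7 and Srebf2, both at 0.06, and those to Stat5b were Prrc2a at 0.04 and Larp1 at 0.06. For Il6st they were Unc13d at 0.05 and Limd2 at 0.06, and for Ifngr1 Tut7 at 0.06 and Capg at 0.08. Sh2b3 had Snx4 at 0.10 and Parp10 at 0.12, Socs2 had Ttc19 at 0.13 and Itm2a at 0.14, and Csf2rb had Slc27a4 at 0.20 and Nadk at 0.24. These distances rest on 7 libraries, and flat genes are near each other by their flatness alone.

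The wider pathway was read from 7 lists by role, with 93 genes in all, of which 78 were tested. None of the 78 passed in edgeR, where 0.00651% of all genes were called. An unadjusted p under 0.05 was found for 4 of the 78, Il5ra among them, against 503 (3.27%) of all 15372 genes. Without wt_284 it was 1 of 76, against 329 of 14897. Log2 fold changes were positive for 27 and negative for 51, with a median of -0.16, or for 32 and 44 of 76 with a median of -0.04 without wt_284. The genotypes did not overlap for 8 of the 78, all of them lower in KO, among them Csf3r, Dok1, Epor, Il10ra, Il5ra, Irs2 and Stam. That is 10.3% of the lists, against 2.43% of all genes lower in KO and 4.86% in either direction. Without wt_284 it was 11.5%, against 3.62% and 7.25%. The share lower in KO was 8.97% with upper-quartile scaling, against 2.04% of all genes. With counts divided by library totals it was 7.69%, against 1.95%. Under both of these scalings the genotypes overlapped for Dok1 and Stam. Il5ra passed the filter on low counts through WT libraries alone.

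Most receptor subunits had a lower fitted level in KO, though none passed the test. Of 27 listed, 21 were tested, with 4 positive and 17 negative log2 fold changes, 0 called and a median of -0.42. Of all tested genes, 7317 were positive and 8055 negative. Without wt_284, 4 were positive and 15 negative of 19, with a median of -0.20, against 7469 and 7428 of all genes. Il5ra and Lifr, among the 17, passed the filter on low counts through WT libraries alone, so they could only enter as lower in KO. Neither has a fit without wt_284. Il10ra, the interleukin-10 receptor chain of macrophages and lymphocytes, had 3.01, 1.94 and 1.40 CPM in the KO libraries, against 33.6, 3.40, 6.72 and 3.85 CPM in the WT libraries. Every KO library was below every WT library, and wt_284 was far above the other WT libraries. Its log2 fold change was -2.47 ± 0.86 (SE), adjusted p 0.992 in edgeR, and -1.12 ± 0.78 (SE) without wt_284. With the myeloid level as a covariate it was -0.52, with an unadjusted p of 0.401. With no filter on low counts edgeR called it, with an adjusted p of 0.0228, among 0.272% of all genes. Also called there was Il7r, the interleukin-7 receptor of lymphoid precursors, with an adjusted p of 0.0418 in edgeR. Il7r had 4, 1 and 2 counts in the KO libraries, against 134, 4, 21 and 8 counts in the WT libraries.

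Il5ra, the interleukin-5 receptor chain of eosinophils, had 0.258, 0.447 and 0 CPM in the KO libraries, against 7.88, 0.755, 1.38 and 1.67 CPM in the WT libraries. Lifr, the LIF receptor, had 0.861, 0 and 0 CPM in the KO libraries, against 8.12, 1.23, 1.22 and 0.642 CPM in the WT libraries. Both were thus near the limit of detection outside wt_284. Csf3r, the receptor of G-CSF, was well expressed, with 61.1, 53.7 and 49.4 CPM in the KO libraries, against 215, 64.3, 73.5 and 74.7 CPM in the WT libraries. Its log2 fold change was -0.96 ± 0.46 (SE), adjusted p 0.992 in edgeR, and -0.37 ± 0.18 (SE) without wt_284. Myeloid and B cell markers were highest in the same library, wt_284. Apart from fits with the myeloid level as a covariate, their part in these values was not tested.

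Of 3 tested receptor tyrosine kinases of the Flt3 class, 2 were positive and 1 negative, and 0 were called. Csf1r, the receptor of macrophage colony-stimulating factor, had 2.84, 3.28 and 0.891 CPM in the KO libraries, against 55.0, 2.93, 6.11 and 0 CPM in the WT libraries, a log2 fold change of -2.77 ± 1.86 (SE) that was -0.36 without wt_284. Pdgfrb had 0.42 ± 0.46 (SE) and Kit, the receptor of stem cell factor, had 0.13 ± 0.17 (SE). Kit had 0.03 without wt_284, 0.02 without ko_306 and 0.27 without ko_314, and leaving out 1 mouse gave -0.08 to 0.68 for Pdgfrb.

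Of the 8 other JAK and STAT genes, 2 were positive and 6 negative, with 0 called and a median of -0.16. Without wt_284, 3 were positive and 5 negative, with a median of -0.09. Stat3, which carries signals of gp130, had 187, 126 and 99.8 CPM in the KO libraries, against 219, 176, 145 and 146 CPM in the WT libraries. The ranges overlapped, with wt_284 highest and ko_320 lowest. Its log2 fold change was -0.32 ± 0.22 (SE), adjusted p 0.992 in edgeR, and -0.17 ± 0.20 (SE) without wt_284. It was -0.62 without ko_306 and -0.11 without ko_320. Stat2, a STAT of interferon signalling, had a log2 fold change of -0.26 ± 0.20 (SE), which was -0.17 without wt_284 and -0.14 without wt_312, and its ranges overlapped too.

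Of the 23 inhibitors, all were tested, 9 were positive and 14 negative, 0 were called and the median was -0.12. Without wt_284, 11 were positive and 12 negative, with a median of -0.02. Pias4, an inhibitor of activated STATs, had a log2 fold change of -0.53 ± 0.29 (SE), Dok1, an adaptor that dampens kinase signals, had -0.62 ± 0.35 (SE), and the phosphatase gene Ptpn2 had 0.31 ± 0.19 (SE). Leaving out 1 mouse gave -0.68 to -0.36 for Pias4, -0.83 to -0.39 for Dok1 and 0.16 to 0.40 for Ptpn2. Cish, the STAT5-induced relative of Socs2, had 69.1, 89.9 and 68.9 CPM in the KO libraries, against 60.1, 62.5, 129 and 138 CPM in the WT libraries. The WT libraries thus fell on both sides of the KO libraries, and wt_310 and wt_312 were highest, as wt_312 was for Socs2.

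Of 10 STAT5 target genes, 4 were positive and 6 negative, with 0 called. Their median was -0.37, and -0.04 without wt_284. Osm, which encodes the cytokine oncostatin M, had 3.87, 4.47 and 3.44 CPM in the KO libraries, against 34.9, 6.70, 3.82 and 2.31 CPM in the WT libraries, a log2 fold change of -1.60 ± 0.88 (SE) that was -0.13 without wt_284. Pim1, a kinase of cell survival, had 131, 282 and 200 CPM in the KO libraries, against 146, 179, 156 and 175 CPM in the WT libraries, so that KO libraries lay both above and below WT. Bcl2l1, which encodes the survival protein BCL-XL, had -0.38 ± 0.26 (SE), which was -0.23 without wt_284 and -0.18 without ko_314. Cish, Socs1 and Socs3 stand in this list and in that of the inhibitors.

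STAT5 proteins bind DNA at TTCNNNGAA, a motif that reads the same on both strands. Promoters of 7 of the 9 genes, in 9 windows of 250 bases before to 50 bases after a RefSeq start (GRCm38.p6), held 0 such motifs, where 8.3% of all 32851 windows held one. A set of 9 windows is too small for 0 to set these genes apart from that share. Of 95 windows of 73 listed genes, 12 held the motif. Shown are stretches of 3 of them, from a pair of feedback inhibitors and from Csf2rb2, the copy of Csf2rb, with the motif in capitals. They lie at chr9:107296639-107296698 (plus strand) for Cish, at chr11:117969492-117969540 (minus strand) for Socs3 and at chr15:78305708-78305756 (minus strand) for Csf2rb2.
Cish: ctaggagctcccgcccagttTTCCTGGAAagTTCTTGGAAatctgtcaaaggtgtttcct
Socs3: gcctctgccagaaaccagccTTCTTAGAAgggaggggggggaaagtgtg
Csf2rb2: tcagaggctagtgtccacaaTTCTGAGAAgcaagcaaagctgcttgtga
The Cish stretch holds 2 motifs, and the others hold 1 each. Over the 7 libraries Cish ran from 60.1 to 138 CPM, whereas Socs3 stood at 2.68 to 2.93 CPM in KO and 1.93 to 6.06 CPM in WT.

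Of 15 adaptors, 7 were positive and 8 negative, with 0 called and a median of -0.000293. Irs2, an adaptor of insulin and cytokine receptors, had 22.8, 16.4 and 17.8 CPM in the KO libraries, against 52.1, 27.1, 27.2 and 45.8 CPM in the WT libraries. Every KO library was below every WT library. KO minus WT was -0.998 ± 0.29 (SE) in log2, with an unadjusted p of 0.00499 and an adjusted p of 0.992 in edgeR, and -0.80 ± 0.29 (SE) without wt_284. Stam, which sorts receptors in endosomes, had -0.36 ± 0.19 (SE), and Crkl had -0.26 ± 0.19 (SE).

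Ligands were scarce. Only 2 of 10 were tested, Osm and Flt3l, the gene of FLT3 ligand, with a log2 fold change of -0.62 ± 0.39 (SE). Il3 had 0 counts in every library, and Csf2, Ifng and Il5 had 1 count in 1 library each. Il6 had 0 counts in KO, and in WT 47 counts in wt_284, 8 in wt_290 and 0 in the others.

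**Figure D5:**
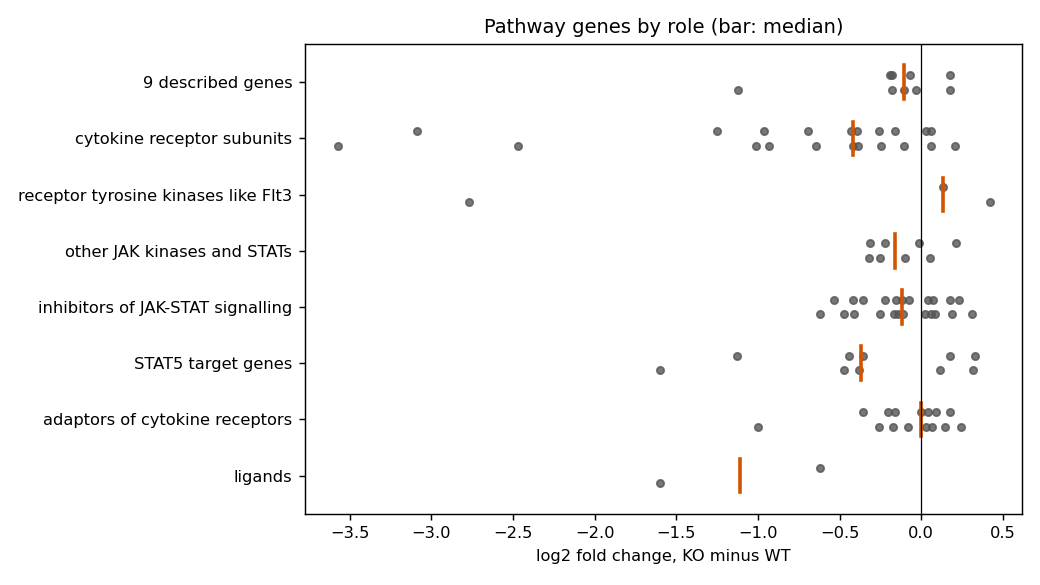
Log2 fold change, KO minus WT (x axis), of the 9 genes and of the tested members of 7 role lists (rows), 1 point per gene, with an orange bar at the median. Receptor subunits have a median of -0.42 and reach -3.57 at Il5ra, which passed the filter on low counts through WT libraries alone. Of the points shown, 0 passed the test in edgeR.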

How the data were processed

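Reads were handled with cutadapt and Salmon, of unstated version, per the submitters' processing notes. The values the authors deposited are estimated counts for each gene, held as whole numbers and not scaled between libraries. Annotation, genome build, rounding and the step from transcripts to genes are not stated there. Per the labels' protocols, the library kit was a stranded one for low amounts of total RNA, while the molecule label reads polyA RNA. Each of the 7 columns of values carries the name of 1 sample. Positions and lengths came from GENCODE M21 (GRCm38), which holds the identifiers of all 9 genes, version included.

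Genotypes were compared by the robust quasi-likelihood test of edgeR 4.0.16 (R 4.3.3), after filterByExpr and with TMM factors. P-values were adjusted over all genes by Benjamini-Hochberg, with a threshold of 0.05. The standard error was taken as the size of the log2 fold change over the square root of F. Shares were tested by exact permutation over the libraries. No molecular identifiers were used, so binomial intervals cover counting error only.

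The 9 genes and the lists were chosen with earlier results of these data known. Genes are named by rule: Emcn, the 9 genes, Csf2rb2, up to 3 genes of each list by the smallest p, and the 2 nearest patterns of each gene. A gene that this rule names is not reported here. Csf3r, Il7r, Cish, Socs1, Socs3, the scarce ligands and the genes listed as not overlapping were chosen after their values were seen. Alternatives were DESeq2 1.42.0, RLE and upper-quartile scaling, no filter, a minimum of 1 CPM in at least 3 libraries, the test without robust estimation, limma-voom (limma 3.58.1) with quality weights, the myeloid level as a covariate, mice numbered above 300, and leaving out each mouse. Other scalings for the overlap of groups were added after seeing the data.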

Additional observations from a re-analysis of the deposited data

Results flagged for a closer look

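Of 31 sets of 4 WT values examined, 7 had 1 library far from the others. Its gap to its neighbour took up most of the group's range, which chance gives in about 1 of 20 independent groups of normal values. In 6 of the 7 sets the library was wt_284, the one with 14791 CPM of myeloid markers: Csf2rb had 142 CPM there, Csf1r 55.0 CPM, Il10ra 33.6 CPM, Il5ra 7.88 CPM, Lifr 8.12 CPM and Osm 34.9 CPM. The remaining one was Dok1, at 21.9 CPM in wt_310. The sets share the same WT libraries, and many are genes named for a small p in these data. The 7 of 31 can therefore not be set against that chance rate. Csf1r is itself among the myeloid markers. Apart from fits with the myeloid level as a covariate, the part of these markers in the values was not tested.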

How the results depend on the processing

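Under 16 alternatives for each gene, 0 of the 9 genes passed: the smallest adjusted p over 144 such values was 0.725. Genes called over all genes numbered 1, and 10 with DESeq2, 81 with no filter, 0 with limma-voom (Emcn then had an adjusted p of 0.981), 2 with the myeloid level as covariate, 7 in mice numbered above 300, and 1 to 3 leaving out 1 mouse. With no filter 2 of the 27 listed receptor subunits, Il7r and Il10ra, were called, where 0.272% of all genes were. Both had their highest level in wt_284. The count of the 9 genes whose genotypes did not overlap was 0 with upper-quartile scaling and 0 with CPM by total counts. Of 472 fold change alternatives over all named genes, 446 kept direction and call and 24 turned direction.

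With the myeloid covariate the log2 fold changes that turned were 0.0625 for Flt3, 0.17 for Ifngr1, 0.0390 for Stat5b, -0.20 for Socs2, 0.30 for Sh2b3, 0.26 for Csf2rb2, 2.49 for Csf1r, 0.87 for Osm and 0.0256 for Stat3. Csf1r is itself among the 16 myeloid markers that make up the covariate, so its turn there is in part built in. In mice above 300 they were 0.12 for Flt3, 0.0653 for Stat5b, -0.20 for Socs2, 0.36 for Sh2b3 and 0.36 for Osm. With upper-quartile scaling Sh2b3 had 0.0164. Leaving out 1 mouse gave -0.26 to 0.0526 for Flt3, -0.29 to 0.0533 for Ifngr1, -0.28 to 0.0365 for Stat5b, -0.00542 to 0.39 for Socs2, -0.18 to 0.20 for Sh2b3 and -0.0763 to 0.68 for Pdgfrb. Csf2rb stayed below 0 throughout, at -0.48 without wt_284 and -0.14 with the covariate. The cause was not tested.

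The longest transcript as length gave 7.14 CPM per kb for Flt3, 7.94 for Il6st, 43.2 for Ifngr1, 22.9 for Stat5a and 7.93 for Socs2. No paired analysis was made, because the mice are identified here by number and not by litter. Il5ra and Lifr did not pass the filter in some alternatives and have no value there. With 3 and 4 mice, small differences are within the intervals given, and p-values over the 35 splits cannot go below 0.0286.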
